A study of Mus musculus with 15 samples.

Results

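The 5 genes described here are Apoe, the gene disrupted in every animal of the study, and 4 genes that lie beside it on mouse chromosome 7: Apoc1, Apoc2, Apoc4 and Tomm40. A probe set (a group of short probes read out as 1 value) was counted to the set where the array's annotation gave exactly 1 gene and that gene was on the list. Each of the 5 genes had 1 such probe set, so the set holds 5 of the 18193 named genes and 5 of 45037 probe sets, and 0 probe sets named one of these genes together with another gene. They were 1432466_a_at for Apoe, 1417561_at for Apoc1, 1418069_at for Apoc2, 1418708_at for Apoc4 and 1426118_a_at for Tomm40. The choice used position and name, not measured values.

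The samples were foam cells (macrophages filled with lipid in the lesions of atherosclerosis), cut by laser from sections of the aortic sinus of ApoE-/- mice of the C57BL/6 strain. The 15 arrays form 3 diet groups of 5. CHOW mice ate regular chow for 22 weeks, 14w-WD mice ate chow for 8 weeks and then a western-type diet for 14 weeks, and 2w-WD mice ate chow and then the western-type diet for 2 weeks. By the study's design text the CHOW and 14w-WD mice were 22 weeks old at the end. For the 2w-WD group the sample labels give 20 weeks of chow, while the design text ends the diet at 24 weeks of age. The 2w-WD mice were thus 22 or 24 weeks old, and may have been older than both other groups. The part of age in the comparisons with 2w-WD was not tested. Both western diet groups and CHOW carry the disrupted Apoe gene, no group with an intact Apoe gene was analysed here, and the sources used here do not name the allele. No label says which animal an array came from, so p-values speak of the spread between arrays, part of which may be technical.

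Apolipoprotein E is a ligand on remnant lipoproteins for receptors of the LDL receptor family, and macrophages of lesions are a known source of it. The small apolipoproteins C-I, C-II and C-IV are coded beside it. Apolipoprotein C-II is the cofactor of lipoprotein lipase, while C-I hinders the enzyme and the uptake of lipoprotein remnants. In macrophages, the oxysterol-sensing liver X receptors are known to switch on Apoe and the C genes together through shared downstream enhancers, and Tomm40, the next gene, codes the channel through which proteins enter mitochondria.

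In the RefSeq order of mouse assembly GRCm38.p6 the genes run Apoc2, Apoc4, Apoc1, Apoe, Tomm40, Nectin2 along chromosome 7, and before Apoc2 stand Clptm1 and then the predicted gene Gm44805. Start regions were read from RefSeq windows of that build, which hold 250 bases before and 50 bases after a gene's start; 4 of the 5 genes matched, with 6 windows. The 4 windows below are shown because they are the starts of the disrupted gene and of its neighbours, all on the minus strand, and because their motif content differs. Capitals mark matches to 4 motifs, searched as letters on both strands. They are the TATA box with the letters TATAAA, the CCAAT box, the GC box with the letters GGGCGG, and the motif of nuclear receptors with the letters AGGTCA. The motifs do not overlap each other in these windows. The Apoe window at chr7:19699139-19699438, the first of its 3 windows, held 0 matches, and the windows at chr7:19681411-19681710 for Apoc4, chr7:19677892-19678191 for Apoc2 and chr7:19715380-19715679 for Tomm40 held 3, 2 and 8.
Apoe: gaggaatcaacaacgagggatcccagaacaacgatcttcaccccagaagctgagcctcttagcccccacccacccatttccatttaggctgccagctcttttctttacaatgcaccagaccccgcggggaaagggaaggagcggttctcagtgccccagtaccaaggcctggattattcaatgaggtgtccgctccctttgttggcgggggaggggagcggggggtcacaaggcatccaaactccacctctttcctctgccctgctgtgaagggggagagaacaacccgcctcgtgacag
Apoc4: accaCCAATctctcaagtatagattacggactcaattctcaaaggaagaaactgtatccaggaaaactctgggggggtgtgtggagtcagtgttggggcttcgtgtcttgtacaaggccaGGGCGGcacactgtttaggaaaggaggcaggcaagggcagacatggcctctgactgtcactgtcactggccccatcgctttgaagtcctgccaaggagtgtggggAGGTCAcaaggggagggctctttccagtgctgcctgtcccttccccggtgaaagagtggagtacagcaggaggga
Apoc2: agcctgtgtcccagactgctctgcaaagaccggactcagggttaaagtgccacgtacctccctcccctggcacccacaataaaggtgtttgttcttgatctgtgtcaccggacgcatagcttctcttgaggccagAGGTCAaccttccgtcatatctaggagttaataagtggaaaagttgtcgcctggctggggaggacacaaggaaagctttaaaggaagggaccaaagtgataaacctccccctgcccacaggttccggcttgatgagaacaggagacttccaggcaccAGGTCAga
Tomm40: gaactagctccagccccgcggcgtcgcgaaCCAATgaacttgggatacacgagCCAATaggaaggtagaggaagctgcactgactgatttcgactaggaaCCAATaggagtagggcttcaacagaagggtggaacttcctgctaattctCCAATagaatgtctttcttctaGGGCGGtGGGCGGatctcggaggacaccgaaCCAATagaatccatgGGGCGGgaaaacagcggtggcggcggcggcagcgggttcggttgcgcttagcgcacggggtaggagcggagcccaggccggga

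The nuclear receptor motif AGGTCA stood 115 bases before the start and 42 bases past it in the Apoc2 window, and 25 bases before the start in the Apoc4 window. Tomm40 held 5 CCAAT boxes and 3 GC boxes within its window. Another Apoe window, at chr7:19698572-19698871, held TATAAA once on each strand, and the last one, at chr7:19698349-19698648, held 0 matches. Of 32851 RefSeq mouse windows of this length, 13.6% held TATAAA, 37.4% CCAAT, 35.7% GGGCGG and 16.3% AGGTCA, so none of these motifs is rare. The arrays measured transcripts and not promoters, so a match is a description of the sequence.

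The values are intensities on a linear scale, and levels below are log2(intensity + 16), where the added 16 keeps dim values from dominating and also understates their changes. As a guide to how dim probe sets read, 83 probe sets of 74 olfactory, vomeronasal or taste receptor genes were used. Their median lay between intensities of 22.8 and 35.8 on the 15 arrays, and their 95th percentile between 80.98 and 134.6. Probe sets differ in how strongly they bind, so this reference describes nearness to background and does not rank genes by abundance. Whether some of the receptor genes are expressed in foam cells was not tested.

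Apoe, the disrupted gene, read within the lower part of every array. Its intensities were 11.7, 16.6, 21.4, 34.4 and 1.65 on CHOW replicates 1 to 5. On the 2w-WD arrays they were 26.4, 14.8, 14.4, 19.9 and 8.45, and on the 14w-WD arrays 32.3, 15.2, 16.9, 28.8 and 33.1. The 3 groups overlapped, and the extremes, 1.65 and 34.4, both came from CHOW. On 0 of 15 arrays did Apoe pass the reference's 95th percentile, and on 5 of 15 it passed the reference's median. It ranked between percentiles 3.66 and 49.5 of the probe sets of its array, below the middle on all 15. Which part of the transcript the probe set reads, and whether the disruption removes that part, is not stated in any source used here, so the low reading is no check of the genotype. With no group of intact Apoe, it cannot be set against a normal level either.

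Apoc1, the inhibitor of lipoprotein lipase, read clearly on some arrays and near the reference's median on others. Its intensities were 149, 125, 131, 62.0 and 60.5 on CHOW replicates 1 to 5. In 2w-WD they were 99.4, 21.3, 127, 19.5 and 17.5, and in 14w-WD 217, 158, 69.3, 149 and 79.9. Among the 2w-WD arrays, replicates 2, 4 and 5 lay below every array of the other groups, whereas replicates 1 and 3 lay within the CHOW range. Apoc1 passed the reference's 95th percentile on 8 of 15 arrays, 3 of CHOW, 2 of 2w-WD and 3 of 14w-WD, and its median on 12. In these samples of many cells, fewer cells with Apoc1 transcript and less transcript per cell cannot be told apart.

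Apoc4, a minor apolipoprotein whose role in macrophages is little known, passed the reference's 95th percentile on 11 of 15 arrays. Its CHOW intensities were 1154, 123, 160, 163 and 50.9. In 2w-WD they were 175, 51.6, 182, 141 and 98.7, and in 14w-WD 280, 322, 208, 69.1 and 136. CHOW replicate 1 lay 3.58-fold above the next array in intensity, at percentile 94.2 of its array, and the other arrays of the 3 groups overlapped. All 15 arrays lay above the reference's median.

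Apoc2, the cofactor of lipoprotein lipase, varied least among the C genes. Its intensities ran from 44.6 to 72.5 in CHOW, with 72.5, 44.6, 54.5, 57.4 and 54.0 on replicates 1 to 5. In 2w-WD they were 61.8, 46.1, 44.2, 60.2 and 59.8, and in 14w-WD 65.7, 53.3, 41.2, 51.7 and 85.9. All 15 arrays lay above the reference's median and 0 above its 95th percentile, so at these values Apoc2 transcript was not distinguishable from the brighter receptor probe sets. An annotated gene that reads through Apoc4 into Apoc2 lies at the same place, and reads of such a transcript could not be separated here.

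Tomm40, the mitochondrial channel gene, also lay between the reference's median and 95th percentile on 14 of 15 arrays. Its intensities were 58.9, 41.7, 46.4, 38.4 and 50.7 in CHOW. In 2w-WD they were 61.8, 27.9, 52.1, 38.7 and 30.9, and in 14w-WD 63.8, 49.7, 74.3, 74.0 and 64.3. The 14w-WD arrays sat high: 4 of 5 exceeded every CHOW array and 4 of 5 exceeded every 2w-WD array, with replicate 2 the exception in both.

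**Figure D1:**
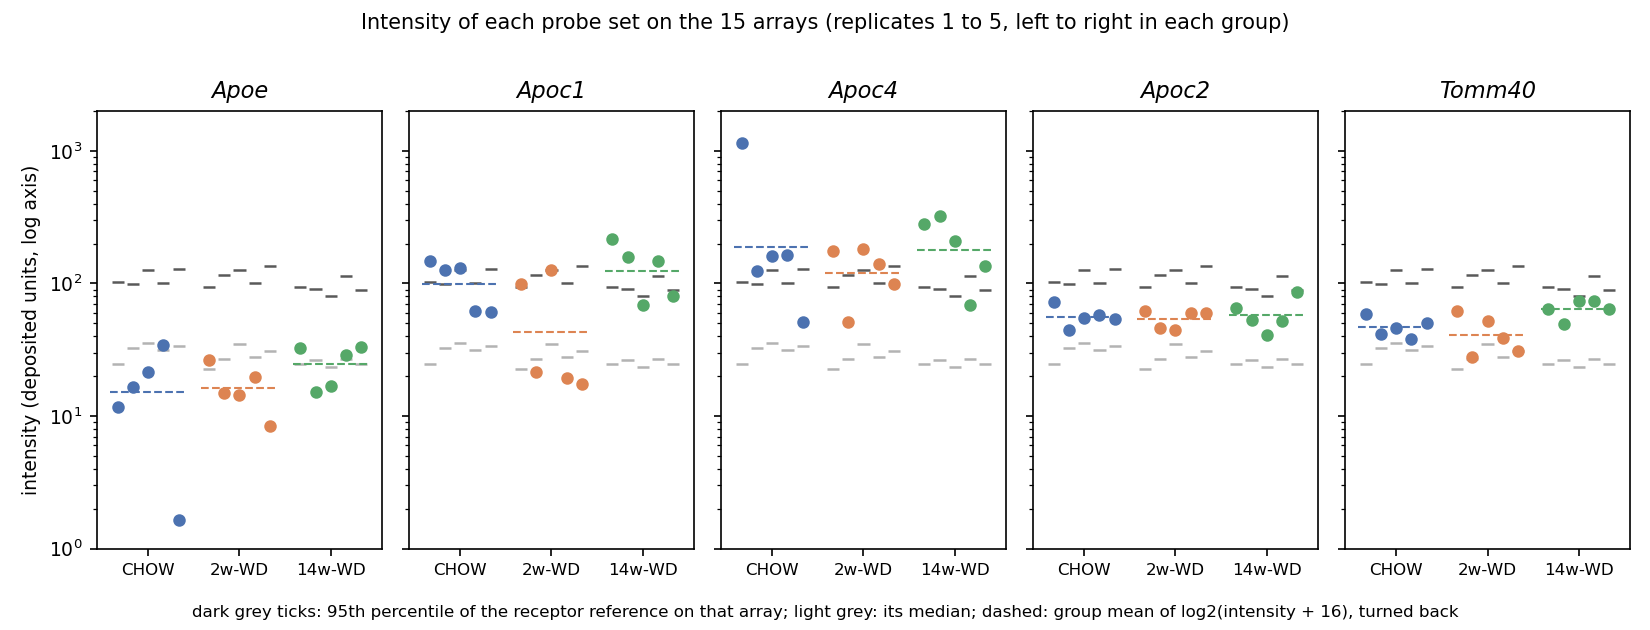
Intensity (log axis) of the 5 probe sets on each of the 15 arrays; points are arrays in replicate order within each diet group, dashed lines are group means of log2(intensity + 16) turned back to intensity, and grey ticks give the median (light) and 95th percentile (dark) of the receptor reference on the same array. Apoe lies under the dark tick on all 15 arrays, Apoc4 lies above it on 11 and Apoc1 on 8.

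Whether the genes around the disrupted locus were expressed was also read from 17 flanking genes with a probe set named here, of 20 listed, each by its brightest probe set. Of these, 3 lay above the reference's 95th percentile on all 15 arrays: Bloc1s3, a subunit of a complex of lysosome-related organelles, at a median intensity of 183, Clasrp, a splicing factor partner, at 176, and Clptm1, a membrane protein, at 1027. Nectin2, the cell adhesion gene next to Tomm40, passed on 13 arrays and Bcl3, a regulator of NF-kB, on 14. Of the 17, 6 passed on 0 arrays, among them Bcam and Cblc, so probe sets at and under the reference stood beside bright ones on both sides of the cluster.

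**Figure D2:**
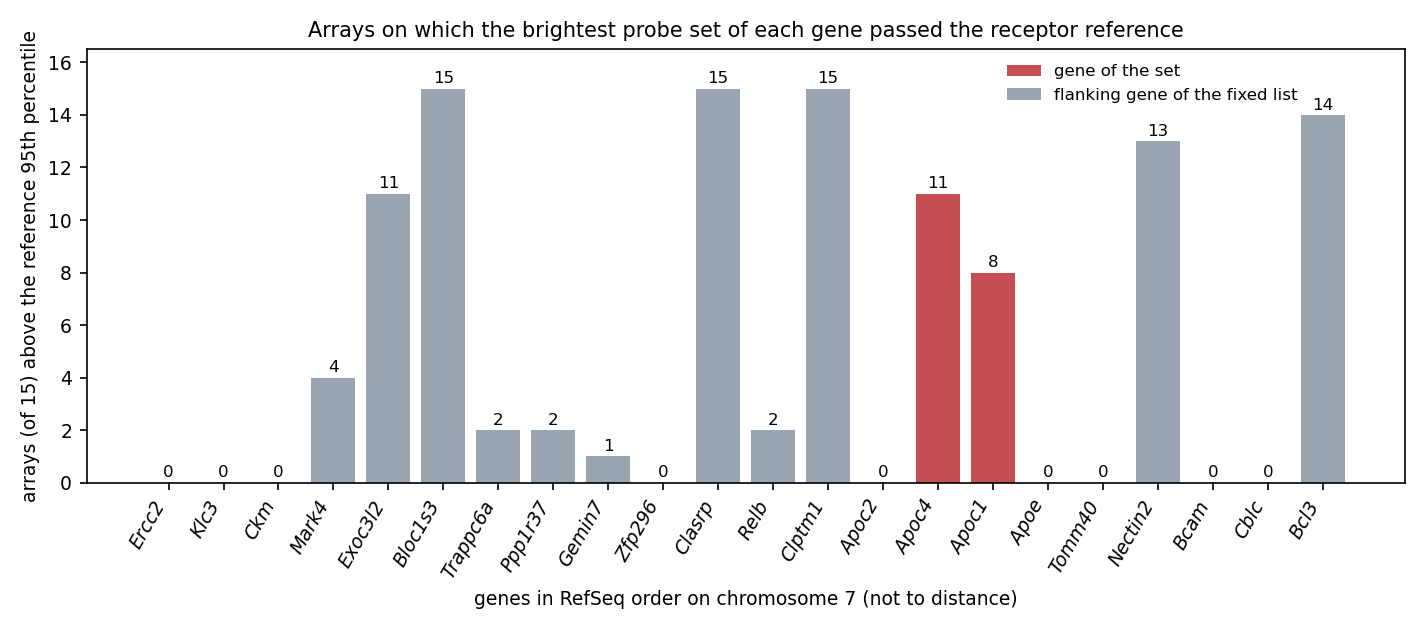
Number of arrays, of 15, on which the brightest probe set of a gene passed the receptor reference's 95th percentile, for the 5 genes of the set (red) and 17 flanking genes (grey) in RefSeq order on chromosome 7, not to distance. Clptm1, the nearest gene before Apoc2 with a probe set, passes on 15 arrays and Nectin2 beside Tomm40 on 13, while Apoc2, Apoe and Tomm40 pass on 0.

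Each diet comparison was tested with limma, a linear model with shared spread, over the 22519 probe sets whose mean reached the median of all (an intensity of 34.6). Apoc1, Apoc2, Apoc4 and Tomm40 passed that filter and Apoe did not. At a Benjamini-Hochberg adjusted p under 0.05, 0 of the 4 were called in any comparison. For 2w-WD against CHOW the share called among all tested probe sets was 0% (0 of 22519, with 2164 at an unadjusted p under 0.05), and for 14w-WD against CHOW it was 0.00444% (1 probe set, 3836 unadjusted). For 14w-WD against 2w-WD it was 11.2%, or 2522 probe sets, 2209 higher and 313 lower in 14w-WD, which became 1224 higher and 648 lower after quantile normalization. That count came to 288 without 14w-WD replicate 1, to 396 without replicate 3, 1064 without replicate 5 and 1150 without replicate 2 of that group. Without 2w-WD replicates 4, 2, 3 or 5 it came to 427, 668, 1379 and 1630, and without 2w-WD replicate 1 to 6531. The 3 comparisons share their groups and are not independent of each other.

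Apoc1 showed the largest differences of the set in both comparisons with 2w-WD, but not in 14w-WD against CHOW, where Apoe and Tomm40 differed more. Its mean level was 6.85 ± 0.53 for CHOW, 5.89 ± 1.03 for 2w-WD and 7.13 ± 0.61 for 14w-WD (log2, SD, n = 5 each). It lay 1.24 higher in 14w-WD than in 2w-WD on the log2 scale (SE 0.42, 95% interval 0.35 to 2.14), a fold of 2.37, with all 5 arrays of 14w-WD above the 2w-WD median and 3 of 5 above every 2w-WD array. The limma adjusted p of 0.0626 missed the threshold, and the exact permutation test gave a two-sided p of 0.0714 (0.357 adjusted over 15 tests of member probe sets, where 5 against 5 arrays cannot go below 0.00794). Leaving out 2w-WD replicate 1 made the difference 1.48 (limma adjusted p = 0.0178) and leaving out replicate 3 of that group made it 1.56 (0.0379). These are the 2w-WD arrays in which Apoc1 was bright, so leaving either out widens the difference by construction. Of all 22519 tested probe sets, 6531 were called without replicate 1 and 1379 without replicate 3. With all 15 arrays the Apoc1 difference also passed with array weights (1.30, limma adjusted p = 0.0275) and with the replicate number as a block (limma adjusted p = 0.0282). Those settings called 7004 and 3943 of the 22519 probe sets, against 2522 in the main fit. Between 2w-WD and CHOW the difference was -0.96 (SE 0.42, interval -1.85 to -0.07, limma adjusted p = 0.517, exact p = 0.103). Between 14w-WD and CHOW it was 0.29 (limma adjusted p = 0.744).

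Tomm40 had mean levels of 5.97 ± 0.18 for CHOW, 5.83 ± 0.35 for 2w-WD and 6.33 ± 0.19 for 14w-WD (log2, SD, n = 5 each). It lay 0.50 higher in 14w-WD than in 2w-WD (SE 0.19, interval 0.11 to 0.90, limma adjusted p = 0.0829, exact p = 0.0397). Against CHOW the difference was 0.36 (SE 0.19, limma adjusted p = 0.332, exact p = 0.0238), and neither exact p passed after adjustment over the 15 tests (0.298 for both). Without 2w-WD replicate 1 the difference from 2w-WD was 0.62 (limma adjusted p = 0.0205). That array was the brightest of 2w-WD for Tomm40, so leaving it out widens the difference by construction. Without it, 6531 of all 22519 tested probe sets were called. For 2w-WD against CHOW the Tomm40 difference was -0.14 (limma adjusted p = 0.810). The median of all tested probe sets also lay 0.19 higher in 14w-WD than in 2w-WD, and 0.13 higher than in CHOW.

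Apoc4 and Apoc2 gave no difference beyond the spread of their arrays. Apoc4 had means of 7.66 ± 1.53, 7.08 ± 0.64 and 7.62 ± 0.81 in CHOW, 2w-WD and 14w-WD (log2, SD, n = 5 each), and its 14w-WD minus 2w-WD difference of 0.53 had an interval from -0.71 to 1.78. The difference of Apoc4 between 14w-WD and CHOW was -0.05 with CHOW replicate 1 and 0.58 without it, and between 2w-WD and CHOW it was -0.58 and 0.05. The limma adjusted p-values of Apoc4 ran from 0.552 to 0.972 over the 3 comparisons. Apoc2 had means of 6.17 ± 0.20, 6.13 ± 0.18 and 6.21 ± 0.32, and its differences, 0.08 at most, had intervals from -0.43 to 0.47 over the 3 comparisons, which does not show that the groups were alike below that size.

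For Apoe the means were 4.97 ± 0.56 for CHOW, 5.01 ± 0.30 for 2w-WD and 5.34 ± 0.31 for 14w-WD (log2, SD, n = 5 each). All 5 arrays of 14w-WD lay above the 2w-WD median and 4 of 5 above the CHOW median. The difference was 0.33 against 2w-WD (limma without the filter, adjusted p = 0.451, exact p = 0.127) and 0.37 against CHOW (adjusted p = 0.505, exact p = 0.262). The latter came to 0.17 without CHOW replicate 5, the dimmest array, and to 0.54 without CHOW replicate 4, the brightest of that group, and to 0.88 and 0.14 with pseudocounts of 1 and 64. Between 2w-WD and CHOW it was 0.04 (adjusted p = 0.977).

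**Figure D3:**
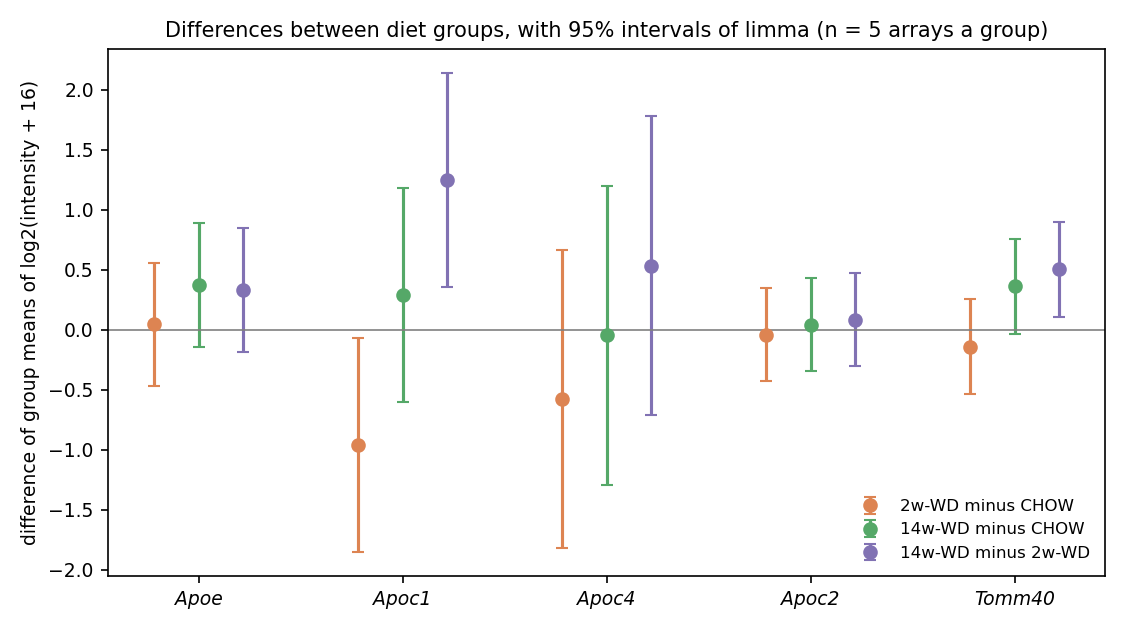
Difference of group means of log2(intensity + 16) for each of the 5 probe sets in the 3 comparisons, with 95% intervals from limma and 5 arrays a group. The intervals of Apoc1 and Tomm40 for 14w-WD minus 2w-WD lie above 0 before adjustment, from 0.35 to 2.14 and from 0.11 to 0.90, and those of Apoe, Apoc2 and Apoc4 span 0 in all 3 comparisons.

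Macrophage markers were bright: 10 of 12 markers passed the reference's 95th percentile on all 15 arrays, while Cd14 passed on 8 and Itgam on 0. The mean level of the list ran from 11.5 to 12.1 for CHOW, 11.4 to 11.8 for 2w-WD and 11.8 to 12.2 for 14w-WD. Heart muscle markers were also bright, with list means of 6.65 to 10.7, 9.29 to 12.1 and 8.74 to 11.2 in the same order. Fibroblast markers were about as bright as the macrophage ones, with 6 of 7 past the reference on all 15 arrays and list means of 11.1 to 12, 10.6 to 11.7 and 11.6 to 12.3. In 14w-WD against 2w-WD all 7 fibroblast markers lay above 0 (median 0.47) and 2 rose, Col1a1 (1.04, limma adjusted p = 0.0401) and Pdgfra (1.95, 0.0296). Of 11 tested macrophage markers 9 lay above 0 (median 0.32) and 1 rose, Tyrobp (0.38, 0.0266). Among all tested probe sets 62.7% lay above 0 (median 0.19) and 11.2% were called. Hepatocytes are a main source of these apolipoproteins. Of 6 of their markers, Alb, Apoa1 and Fgb passed the reference on 0 arrays, Ahsg on 4, Ttr on 13 and Cyp3a11 on 15, with list means of 5.93 to 6.57. Of the other lists, 1 of 8 smooth muscle (Acta2) and 1 of 7 endothelium markers (Vwf) passed on all 15 arrays. So did 1 of 5 adipocyte (Fabp4) and 0 of 5 T cell markers. Retn, an adipocyte marker, passed on 10 arrays, Cidec on 8, Adipoq on 4 and Lep on 0. The adipocyte list means ran from 6.99 to 8.85 for CHOW, 6.80 to 10.65 for 2w-WD and 7.34 to 9.73 for 14w-WD. Across the smooth muscle, endothelium, adipocyte and T cell lists, 0 tested members were called except Lep, an adipocyte hormone. It read lower in 14w-WD than in 2w-WD (-0.84, limma adjusted p = 0.0411), at intensities of 3.2 to 72.1 over the 15 arrays. Intensities over 100 were reached by 20.4 to 24.7% of probe sets in CHOW and by 18.2 to 25.7% and 22.5 to 27.2% in 2w-WD and 14w-WD.

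Over the 15 arrays, Apoc1 and Apoc4 correlated with the macrophage marker mean by Pearson's r, while their rank correlations missed the threshold after adjustment. Apoc1 correlated with the macrophage marker mean at Pearson's r = 0.713 (permutation p = 0.00331, adjusted p = 0.0292 over 30 relations) and Spearman's rho = 0.696 (permutation p = 0.00528, adjusted p = 0.063). Apoc4 did so at r = 0.672 (permutation p = 0.0036, adjusted p = 0.0292) and rho = 0.704 (permutation p = 0.00444, adjusted p = 0.063). The r of Apoc1 was 0.492 without the 2 arrays farthest in the marker mean and 0.506 on deviations from the group means. That of Apoc4 was 0.69 without the same 2 arrays, 0.705 on deviations, and 0.702 without CHOW replicate 1, its own brightest array. With the macrophage marker mean in the model, the Apoc1 difference between 14w-WD and 2w-WD was 0.51 (limma adjusted p = 0.793), that of Tomm40 stayed at 0.50 (0.587) and that of Apoc4 was -0.91 (0.679), and 0 of all tested probe sets were called. The fibroblast marker mean, added after seeing the data, gave r = 0.341 with Apoc1 and 0.474 with Tomm40 (permutation p = 0.212 and 0.0742, adjusted p = 0.425 and 0.236 over 35 relations; rho = 0.2 and 0.439, adjusted p = 0.747 and 0.329), and -0.132 and -0.00908 on deviations from the group means. The part of either cell type in the differences of the set was not tested beyond these values.

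**Figure D4:**
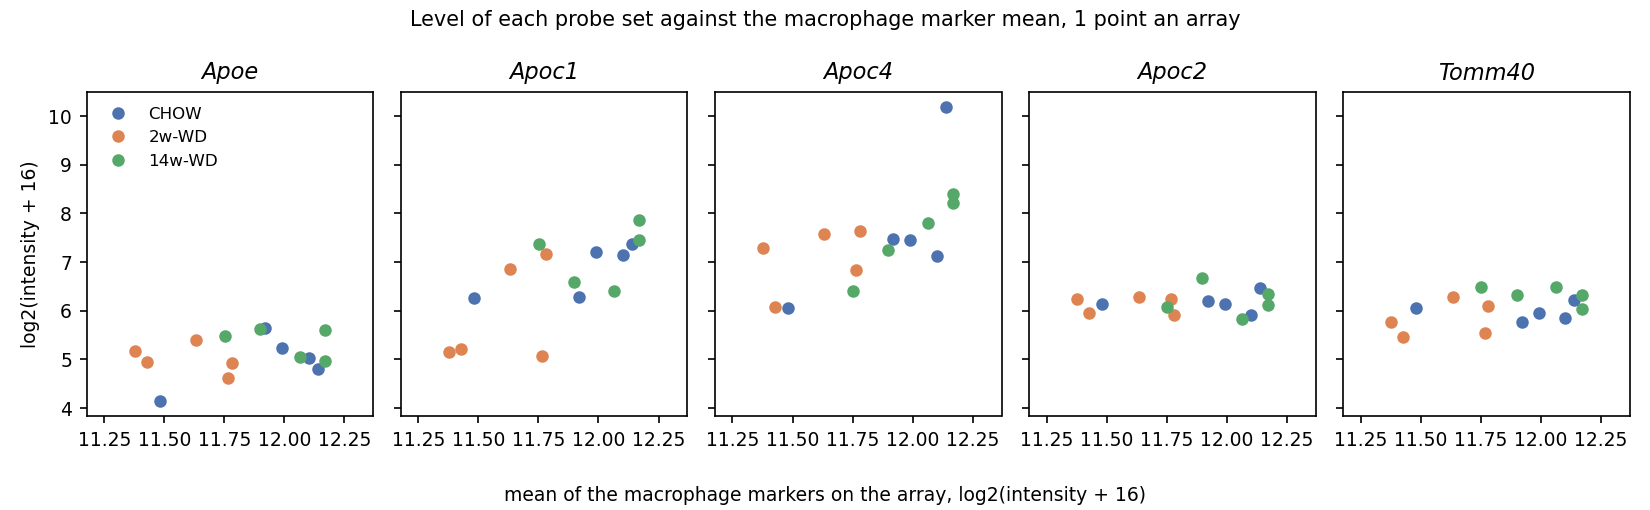
Level of each probe set, log2(intensity + 16), against the mean level of 12 macrophage markers on the same array, 1 point an array, coloured by diet group. Apoc1 and Apoc4 run upward with the marker mean (r = 0.713 and 0.672), while Apoe, Apoc2 and Tomm40 do so less (0.262, 0.0917 and 0.397).

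With the heart muscle markers, r lay between -0.0146 and 0.0926 for Apoc1, Apoc2, Apoc4 and Tomm40 and was -0.362 for Apoe. Smooth muscle markers correlated with Apoc4 at r = 0.77 (permutation p = 0.0014, adjusted p = 0.0292, rho = 0.661, permutation p = 0.00873, adjusted p = 0.0655). That r was 0.758 on deviations from the group means, 0.438 without CHOW replicate 1 and 2w-WD replicate 2, and 0.558 without CHOW replicate 1 alone. Apoc1 with the smooth muscle markers came to r = 0.569 (permutation p = 0.0266, adjusted p = 0.133). Tomm40 correlated with the share of an array's values that exceed 100 at r = 0.707 (permutation p = 0.00389, adjusted p = 0.0292, rho = 0.686, permutation p = 0.0063, adjusted p = 0.063), with 0.623 left without the 2 farthest arrays and 0.472 on deviations. Apoc1 and Apoc4 came to r = 0.512 and 0.53 with that share (adjusted permutation p = 0.158 for both). With that share in the model the Tomm40 difference between 14w-WD and 2w-WD was 0.29 (limma adjusted p = 0.757) and that of Apoc1 0.83 (0.711). Of the 10 pairs within the set, Apoc1 with Tomm40 passed on Pearson's r, 0.678 (permutation p = 0.00592, adjusted p = 0.0355), but not on rho, 0.536 (permutation p = 0.0422, adjusted p = 0.126). It was 0.544 without the 2 farthest arrays, both among the dim 2w-WD ones, and 0.552 on deviations. Apoc1 with Apoc4, a pair of neighbours, came to r = 0.508 (permutation p = 0.0527, adjusted p = 0.158, rho = 0.571, permutation p = 0.0289, adjusted p = 0.126). Apoc2 with Apoc4, also neighbours, came to r = 0.35 (adjusted permutation p = 0.399). Apoe with its neighbours Apoc1 and Tomm40 came to 0.310 and 0.314 (adjusted permutation p = 0.416 for both).

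Across 11186 genes with a probe set above the filter, those most like each of the 5 over the 15 arrays were taken by Pearson's r, as a description with no test. For Apoc4 they were Zdhhc4 (0.911), Poc1a (0.897), Spsb2, Mrpl43 and Nup88 (0.881), for Apoc1 Nhp2 (0.887), Mocs2, Setdb2, Snap23 and Ak5 (0.839), and for Tomm40 Mmab (0.910), Nat8l, Ado, Grip1 and Cyp11a1 (0.872). Apoe lay closest to Faim (0.820), Rnf24, Tmem237, Zfp775 and Hps5 (0.800), and Apoc2 to Eml2 (0.75), Egfbp2, Ston2, Rae1 and Kansl3 (0.670). Apoc1, Apoc2, Apoc4 and Tomm40 were not among the 5 nearest of another gene of the set. Apoe lay under the filter and so could not be found among them.

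Genes that act with the products of the cluster were described from 6 lists, each by the brightest probe set of a gene. In 2w-WD against CHOW and in 14w-WD against CHOW, 0 genes of the 6 lists were called by limma at an adjusted p under 0.05. In 14w-WD against 2w-WD, where 11.2% of all tested probe sets were called, 1 of 13 tested flanking genes rose: Relb, a subunit of NF-kB (1.87, SE 0.35, limma adjusted p = 0.0120). Its means were 5.79 ± 0.72 for CHOW, 4.85 ± 0.42 for 2w-WD and 6.72 ± 0.66 for 14w-WD (log2, SD, n = 5 each), and it passed the reference's 95th percentile on 2 arrays. The median difference of the flanking genes was -0.03, against 0.19 for all tested probe sets.

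Lipoprotein lipase and its modulators had 6 tested members, of which 1 rose in 14w-WD against 2w-WD: Angptl4, an inhibitor of the lipase (1.62, SE 0.47, limma adjusted p = 0.0386). Lpl itself, the enzyme that Apoc2 activates and Apoc1 hinders, was among the bright probe sets, with a median intensity of 17259 and a difference of 0.21 (SE 0.13, limma adjusted p = 0.269). The list's median difference was 0.01. Of 8 tested genes of liver X receptor regulation 1 rose: Rxra, the partner of the receptors (0.96, SE 0.29, limma adjusted p = 0.0422). Rxra passed the reference's 95th percentile on 4 arrays. The median difference of the 8 genes was 0.50 with 7 of 8 above 0, against 0.19 and 62.7% for all tested probe sets. The targets Abca1 and Abcg1, which export cholesterol, were bright (median intensities 6335 and 8155), and Nr1h3, which codes the macrophage liver X receptor alpha, passed the reference on 0 arrays.

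Among the receptors of apolipoprotein E and their partners, 0 of 12 tested were called (median difference 0.14 in 14w-WD against 2w-WD). Trem2, a lipid-sensing receptor, came nearest, at 1.23 (SE 0.42, limma adjusted p = 0.0618), and 8 of the 12, Lrp1, Scarb1 and Vldlr among them, passed the reference on all 15 arrays. The list of apolipoproteins coded elsewhere also holds Apobr, a receptor of apolipoprotein B, and Apoo and Apool, which code mitochondrial proteins; of its 10 tested members 0 were called (median 0.03). Clu, Apoo and Apobr passed the reference on all 15 arrays, whereas Apoa1, Apoc3 and Apoa4, made by liver and gut, passed on 0. For Tomm40 the fitting list is mitochondrial import, where 1 of 21 tested rose, Tomm34 (1.60, SE 0.40, limma adjusted p = 0.0233). Tomm34 passed the reference on 7 arrays. The list's median difference was 0.25 with 14 of 21 above 0, against 0.19 and 62.7% for all tested probe sets. Of the 22 import genes with a probe set named here, 12 passed the reference on all 15 arrays, whereas Tomm40 itself passed on 0. With the macrophage marker mean or the share of values over 100 in the model, 0 of all tested probe sets were called, these 4 genes included.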

How the data were processed

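The authors deposited 1 intensity on a linear scale per probe set and array. Per the labels' protocols, RNA of laser-captured cells was extracted (PicoPure), amplified (RiboAmp HS) and labelled with biotin (TURBO, 15 µg of amplified RNA) for Affymetrix Mouse Genome arrays. How intensities were summarised, background-corrected and normalized is not stated in any source used here. GEO's annotation named 1 gene for 34945 probe sets, several for 932 and none for 9160, and 34741 of the first matched the RefSeq table by gene ID.

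All 15 arrays entered 1 limma fit (3.58.1, R 4.3.3; lmFit, eBayes with trend, no replicate block) on log2(intensity + 16), with Benjamini-Hochberg adjustment over the 22519 probe sets tested. Printed SEs are limma's. Single probe sets also had an exact two-sided permutation test, and correlations a permutation test with 100000 resamples. The fit was tested on simulated data. For arrays no depth exists; the number of arrays limits precision.

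The genes, lists and tests were chosen with earlier results of these data known. Named were every gene of the set, the 5 genes most like each, and up to 4 genes of a list, by smallest unadjusted p or by level; further flanking genes, Lpl, the liver X receptor genes, receptors and apolipoproteins named by level were picked after their values were seen. Lists were flanking genes, apolipoproteins elsewhere, receptors, lipase modulators, liver X receptor regulation and mitochondrial import, with markers of macrophage, fibroblast, heart muscle, smooth muscle, endothelium, adipocyte, hepatocyte and T cell. Alternatives were normalization, pseudocount, filter, weights, block, groups fitted, gene level, marker covariates and left-out arrays.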

Additional observations from a re-analysis of the deposited data

How the results depend on the processing

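Under the alternatives run, the differences of Apoc1, Tomm40 and Apoe that are 0.14 or larger in size kept their direction, except Apoc1 in 14w-WD against CHOW, which came to -0.0465 with the share of an array's values that exceed 100 as a covariate (this alternative was chosen after seeing the data). Apoc1 in 14w-WD against 2w-WD ran from 0.51 to 1.62 (limma adjusted p 0.0178 to 0.793) and Tomm40 from 0.29 to 0.66 (0.0205 to 0.757). Array weights put both past the threshold (1.30, limma adjusted p = 0.0275, and 0.54, 0.0278), hence 2 called genes of the set. That setting called 7004 of all 22519 tested probe sets in 14w-WD against 2w-WD. Leaving out 1 array gave 0 to 2 called genes of the set, with 288 to 6531 of all tested probe sets called in that comparison. The smallest differences turned: Apoc2 to 0.0097 (2w-WD against CHOW), -0.0338 (14w-WD against CHOW) and -0.0436 (14w-WD against 2w-WD) with quantile normalization, and in 14w-WD against CHOW to -0.0063 with median centring and -0.0243 with the share covariate. Apoc4 turned to 0.57 (2w-WD against CHOW) and -0.91 (14w-WD against 2w-WD) with the macrophage covariate, to -0.58 in the latter with the share covariate, and to 0.41 in 14w-WD against CHOW with array weights, where it also came to -0.93 with the share covariate, -0.44 with quantile normalization and -0.34 with the macrophage covariate. With 1 array left out, Apoc2 ran from -0.104 to 0.0322, from -0.0748 to 0.134 and from -0.0329 to 0.176 in 2w-WD against CHOW, 14w-WD against CHOW and 14w-WD against 2w-WD, Apoc4 from -0.98 to 0.0525 and from -0.45 to 0.58 in the comparisons with CHOW, and Apoe from -0.16 to 0.21 in 2w-WD against CHOW. The cause was not tested.

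Of all probe sets, the 1 called in 14w-WD against CHOW became 0 with quantile normalization, pseudocount 1, the stricter filter, the mean of a gene's probe sets, and the macrophage or share covariate, 10 with pseudocount 64, 7 without filter, 326 with the 2 groups alone, 4353 with array weights, and 0 to 406 with 1 array left out. The 2522 of 14w-WD against 2w-WD became 7004 with array weights, 1338 with 1 probe set per gene, 1512 with their mean, 0 with the macrophage or share covariate, and 288 to 6531 with 1 array left out. Deviations of same-numbered replicates correlated at -0.20 to 0.47, above 0 in 11 of 15 pairs and over 0.1 in 7, and 6 of 15 arrays were nearest their own number. As no label says that a number pairs samples, the main fit held no replicate block. Whether same-numbered arrays shared a batch was not tested beyond these values. With the replicate block the counts were 51 and 3943, and 1 gene of the set was called, Apoc1 in 14w-WD against 2w-WD (1.24, adjusted p = 0.0282). Apoe, Apoc2 and Tomm40 lay under the receptor reference's 95th percentile on all arrays, and there the signal over background limits what could be seen.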
